A study of Mus musculus with 6 samples.

Results

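The D-type cyclins, their kinase partners Cdk4 and Cdk6, and 4 inhibitors of cyclin-dependent kinases (CDKs) were followed on 6 Illumina mouse bead arrays of RNA labelled as primary myoblast. The 9 genes, Ccnd1, Ccnd2, Ccnd3, Cdk4, Cdk6, Cdkn1a, Cdkn1b, Cdkn2c and Cdkn2d, were taken by their symbols in the platform annotation, which gave 23 probes of the 34885 probes with 1 symbol. These 9 genes stand among 19057 with a probe. Of the 23 probes, 18 probes of 8 genes were above background on at least 3 arrays and were tested, and 5 probes, the single Cdk6 probe among them, were not.

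The study compared myoblasts of wild-type mice (WT) with those of mice carrying a global knockout of Rev-erbα, a nuclear receptor and transcriptional repressor of the circadian clock encoded by Nr1d1. The knockout arrays are written Rev-/- here. Per the labels, all 6 samples came from male C57BL/6 mice aged 6 weeks, and cells of both genotypes were grown in F-10 medium with 20% serum and 5 ng/ml basic fibroblast growth factor, without any other treatment. The study's methods give a younger age for myoblast isolation, so the age is not settled, and they describe hind limb muscle cells depleted of fibroblasts by pre-plating and expanded over several passages. Each label had 3 samples that the methods call independent. Nothing states separate animals, so p-values measure the spread between these samples, which may be technical.

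D-type cyclins rise in response to growth factors and bind CDK4 or CDK6, and the active kinases phosphorylate the retinoblastoma protein, which releases E2F factors to drive the genes of DNA synthesis. Inhibitors of the Ink4 family, such as the products of Cdkn2c and Cdkn2d, bind CDK4 and CDK6 directly, while those of the Cip/Kip family, p21 (Cdkn1a) and p27 (Cdkn1b), bind cyclin-CDK complexes more broadly. In muscle precursors, leaving the cell cycle goes with loss of cyclin D1 and with rising p21 and cyclin D3.

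Several array-wide values bear on all the results. The Nr1d1 probe read 6.59, 6.54 and 7.22 on the arrays labelled WT 1 to 3 and 7.01, 6.51 and 7.14 on those labelled Rev-/- 1 to 3 (log2 intensity), so it was above background on 3 arrays, 2 of them labelled knockout, and did not separate the labels (difference 0.11, SE 0.22). Where that probe lies relative to the deleted part of the gene was not stated, so it cannot settle the genotypes, and each direction below is that between labels. Of 7 satellite cell and myoblast markers 5 were above background, with Myod1 at 7.84 to 8.08, Cdh15 at 9.12 to 9.76 and Des at 12.52 to 12.93, while Pax7 and Myf5 were above it on no array. All 7 markers of differentiated muscle with a probe, such as Ckm at 13.88 to 14.13, were above background, as was the haemoglobin gene Hba-a1 at 14.22 to 14.60. All 4 fibroblast markers, such as Dcn at 13.09 to 13.27, and all 4 endothelial markers, such as Pecam1 at 9.28 to 9.80, were above background too. Of 6 bone markers 5 were above it on at least 3 arrays, with levels far higher on 1 array (below). Transcripts of mature muscle, blood, fibroblasts, endothelium and bone were thus present beside those of the labelled cell type. Whether the RNA came from cultured myoblasts alone was not tested. The array labelled Rev-/- 1 was the least like the others, correlating with them at a mean of 0.983 against 0.991 to 0.992 for the rest. It was the highest array for 7 of 7 neutrophil markers (summed level 14.07, against 9.70 to 11.64 in WT and 9.86 to 11.25 on the other Rev-/- arrays) and for 6 of 6 bone markers (13.38, against 9.37 to 9.60 on the others). In such bulk RNA, fewer cells of a type and less RNA per cell cannot be told apart.

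Across the members, no transcript passed the test between the labels. The share called over the whole array was 0% (0 of 18133 tested probes, a call being a fold of 1.5 or more with a limma adjusted p no higher than 0.05), and of the 18 member probes 0 were called. The member differences, as Rev-/- minus WT in log2, ran from −0.17 to 0.18, with the largest at 1.13-fold, and 11 probes were higher and 7 lower. Their median was 0.010, beside −0.0050 over all tested probes. At an unadjusted p of at most 0.05, 1 member probe passed, in the higher direction (5.56%), where 3.07% of all tested probes did, 1.28% as higher and 1.79% as lower. In 3 member probes (16.7%) the arrays of the labels did not overlap, against a background of 8.49%. Of these, 2 were higher, where 3.73% of all tested probes were, and 1 was lower, where 4.76% were. The smallest adjusted p was 0.997 among the members and over the whole array. For 15 of the 18 probes the 95% confidence interval of the difference lay within 1.5-fold either way, and for 3 probes, 1 of Ccnd2 and 2 of Cdkn1a, it reached that size.

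**Figure D1:**
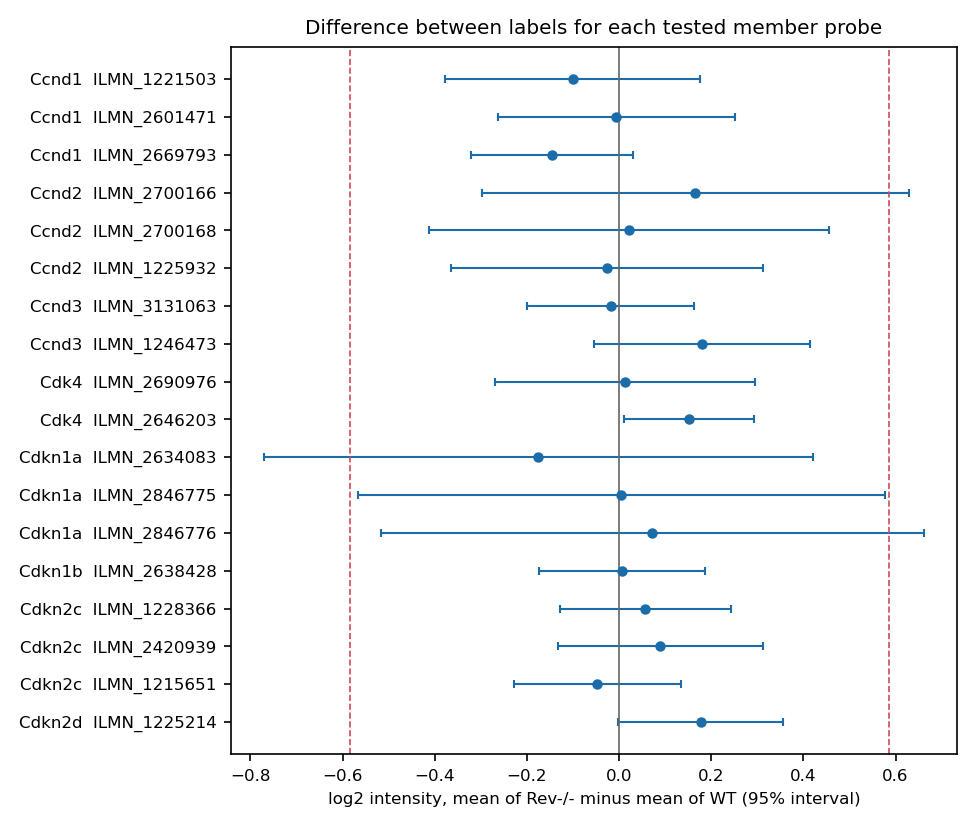
Difference between Rev-/- and WT arrays (log2, horizontal axis) for each of the 18 tested member probes, as a point with its 95% confidence interval from limma. Every point lies between −0.17 and 0.18, and the interval of 1 Cdk4 probe alone lies wholly above 0.

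Among the cyclins, Ccnd1 encodes cyclin D1, the member most closely tied to growth factor signalling. Its brightest probe, ILMN_1221503, read 10.74, 10.64 and 11.05 on WT 1 to 3 and 10.84, 10.68 and 10.61 on Rev-/- 1 to 3. The ranges overlapped, with WT 3 the highest and Rev-/- 3 the lowest array. The fitted difference was −0.10 (SE 0.12), a fold between 0.770 and 1.13 by its 95% interval (exact permutation p = 0.6, two-sided). The second probe, ILMN_2601471, read 10.32, 10.51 and 10.66 on WT and 10.65, 10.46 and 10.36 on Rev-/- arrays, a difference of −0.0058 (SE 0.11) with a 95% interval of 0.833 to 1.19 in fold. The dimmest probe, ILMN_2669793, was at 8.61, 8.67 and 8.83 on WT and at 8.52, 8.55 and 8.60 on Rev-/- arrays, so that every Rev-/- array lay just below every WT array. That difference of −0.15 (SE 0.075) spanned folds of 0.800 to 1.02 and had an exact permutation p of 0.1, the smallest that 3 arrays against 3 can give. All 3 Ccnd1 probes were highest on WT 3. On the deposited values without further normalization they differed by −0.41, −0.30 and −0.38, where the median of all tested probes was −0.13. There every Rev-/- array lay below every WT array in each probe. A rise of cyclin D1 mRNA above 1.19-fold in the Rev-/- arrays lay outside the 95% interval of each of the 3 probes.

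Ccnd2 encodes cyclin D2. Its brightest probe, ILMN_2700166, read 9.52, 8.997 and 9.33 on WT 1 to 3 and 9.84, 9.16 and 9.34 on Rev-/- 1 to 3. Rev-/- 1 was the highest and WT 1 the next, and the remaining Rev-/- arrays fell within the WT range. The difference of 0.17 (SE 0.20) allowed folds of 0.814 to 1.55, and it was −0.034 without Rev-/- 1. ILMN_2700168 was ordered alike at the top, at 8.84, 8.40 and 8.64 on WT and 9.05, 8.41 and 8.49 on Rev-/- arrays (0.021, SE 0.18, or −0.18 without Rev-/- 1). ILMN_1225932, designed from a cDNA clone, read 7.53, 7.19 and 7.27 on WT and 7.58, 7.26 and 7.07 on Rev-/- arrays (−0.025, SE 0.14). All 3 tested Ccnd2 probes were thus highest on Rev-/- 1, the array on which neutrophil and bone markers were also highest, and the part of those cells' RNA in these values was not tested. The fourth probe, ILMN_1235724, was above background on 1 array, at 6.63 to 6.77.

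Ccnd3 encodes cyclin D3, which is retained in differentiating muscle. Its bright probe, ILMN_3131063, was among the steadiest of the members, at 11.32, 11.27 and 11.39 on WT and 11.42, 11.31 and 11.19 on Rev-/- arrays. The ranges overlapped, and the difference of −0.019 (SE 0.077) allowed folds of 0.871 to 1.12. A probe annotated to another Ccnd3 transcript, ILMN_1246473, read 7.41, 7.49 and 7.68 on WT and 7.84, 7.72 and 7.56 on Rev-/- arrays. Its difference of 0.18 (SE 0.10; folds of 0.963 to 1.33) was the largest of the members in log2, yet Rev-/- 3 lay below WT 3 (exact permutation p = 0.2). The last Ccnd3 probe, ILMN_2661849, was above background on 2 arrays and was not tested.

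**Figure D2:**
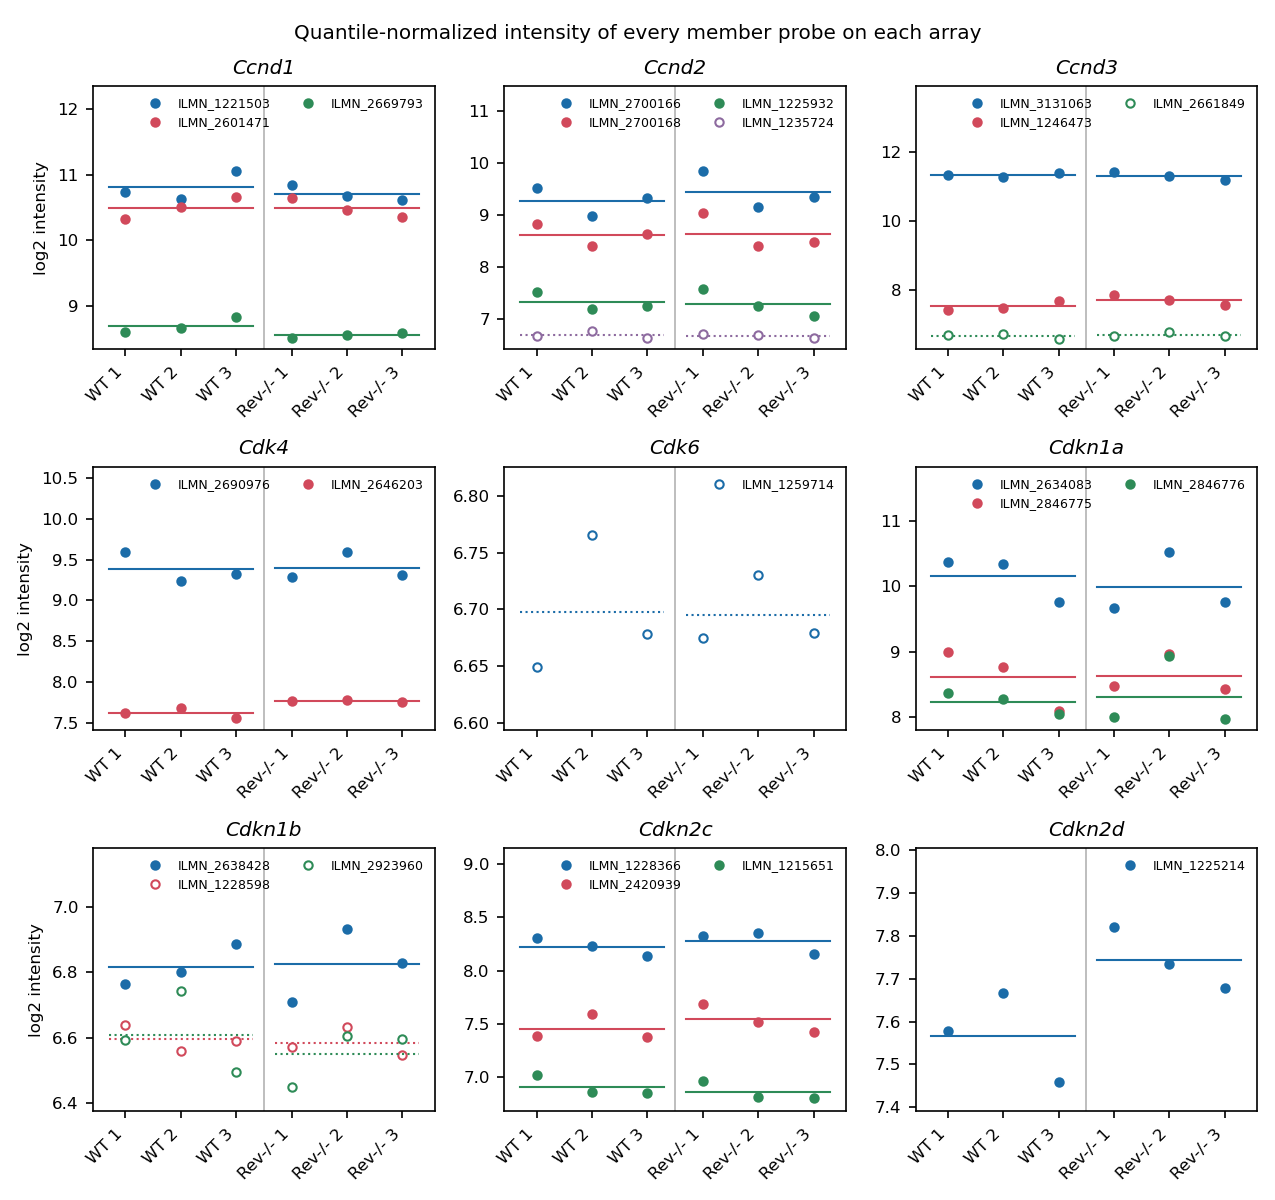
Quantile-normalized log2 intensity of each of the 23 member probes on the 3 WT and 3 Rev-/- arrays, 1 panel per gene with its own vertical scale, with points for arrays and lines for group means. Filled points and solid lines mark tested probes, hollow points and dotted lines those not tested; the Cdkn1a probes spread over up to 0.96 across the arrays of both labels.

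Of the kinases, Cdk4 held the 1 member probe with an unadjusted p under 0.05. ILMN_2646203 read 7.62, 7.68 and 7.56 on WT and 7.77, 7.78 and 7.76 on Rev-/- arrays, so each Rev-/- array was above each WT array. The difference of 0.15 (SE 0.060), a fold of 1.01 to 1.23, had an unadjusted limma p of 0.039 and an adjusted p of 0.997, and its exact permutation p was 0.1. On the deposited values without further normalization it was −0.013, where the median of all tested probes was −0.13. The brighter Cdk4 probe, ILMN_2690976, did not repeat it, at 9.59, 9.23 and 9.33 on WT and 9.29, 9.59 and 9.31 on Rev-/- arrays (0.013, SE 0.12). There WT 1 and Rev-/- 2 were the high arrays of their labels. The Cdk6 probe, for the other kinase partner of the D-type cyclins, read 6.65 to 6.77 and was above background on 1 array, so no difference was detectable at that signal.

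Promoter windows, the 250 bases before the annotated start, were looked up in RefSeq (GRCm38.p6), where 7 of the 9 genes matched, with 10 windows; Ccnd1 and Ccnd2 are named only. Each window was searched on both strands for AGGTCA, the core letters of the element that Rev-erbα and ROR receptors bind, CACGTG, the E-box bound by clock activators and by Myc, and GGGCGG, the Sp1 box. The Cdk4 window, shown because Cdk4 had the member probe of smallest p, lies at chr10:127063285-127063534 on the plus strand, with the matches in capitals (CCGCCC is GGGCGG on the minus strand).
Cdk4: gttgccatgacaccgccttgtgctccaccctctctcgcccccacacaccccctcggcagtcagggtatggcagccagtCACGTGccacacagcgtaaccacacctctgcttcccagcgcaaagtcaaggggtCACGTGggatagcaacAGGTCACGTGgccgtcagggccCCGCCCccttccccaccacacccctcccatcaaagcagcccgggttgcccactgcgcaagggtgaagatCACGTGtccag
It held 4 CACGTG, at 172, 118, 98 and 11 bases before the start, and 1 AGGTCA at 102 bases, which shares its last letters with the CACGTG at 98. Over all 32851 windows of that length, CACGTG was found in 6.02%, AGGTCA in 14.0% and GGGCGG in 32.7%, and among the 10 member windows in 2, 3 and 7. A match of letters is a description and not a measured binding site.

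Among the inhibitors, Cdkn1a, the gene of p21, varied most over the arrays of all members, and it varied within the labels. ILMN_2634083 read 10.38, 10.34 and 9.76 on WT 1 to 3 and 9.67, 10.52 and 9.77 on Rev-/- 1 to 3. Its SD over the 6 arrays was 0.379, which 98.5% of tested probes did not reach. The 3 probes shared the pattern: ILMN_2846775 was at 8.998, 8.77 and 8.09 on WT and 8.48, 8.96 and 8.43 on Rev-/- arrays, and ILMN_2846776 at 8.37, 8.28 and 8.05 on WT and 8.004, 8.94 and 7.98 on Rev-/- arrays. In each, WT 1, WT 2 and Rev-/- 2 were the 3 high arrays and the other 3 were low, so the labels overlapped.

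The label differences of the Cdkn1a probes had no common sign, at −0.17 (SE 0.25; folds of 0.586 to 1.34), 0.0050 (SE 0.24; folds of 0.675 to 1.49) and 0.072 (SE 0.25; folds of 0.698 to 1.58), with exact permutation p values of 0.9, 1 and 1. The first ranged from −0.44 without Rev-/- 2 to −0.019 without Rev-/- 1. These intervals were the widest of the members. The 3 high Cdkn1a arrays were the 3 on which the Nr1d1 probe was at background. Because that split was read from the values and not from the labels, it was not tested. Over 11623 genes, those whose centred values lay closest to ILMN_2634083 on the 6 arrays were Stk16, a protein kinase gene (root mean square distance 0.067), Calr, an endoplasmic reticulum chaperone gene (0.081), and Sqle, of cholesterol synthesis (0.082), while the other Cdkn1a probes lay at 0.164 and 0.174.

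The second of the Cdkn1a windows, shown as that of the most variable member, lies at chr17:29093519-29093768 on the plus strand, with its GGGCGG boxes in capitals.
Cdkn1a: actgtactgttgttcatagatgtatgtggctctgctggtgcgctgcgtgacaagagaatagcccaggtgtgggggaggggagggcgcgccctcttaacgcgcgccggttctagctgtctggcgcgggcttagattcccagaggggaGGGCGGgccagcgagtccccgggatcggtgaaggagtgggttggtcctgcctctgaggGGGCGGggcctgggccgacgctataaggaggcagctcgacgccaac
The boxes were at 104 and 46 bases before the start, and neither AGGTCA nor CACGTG was present in these letters.

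**Figure D3:**
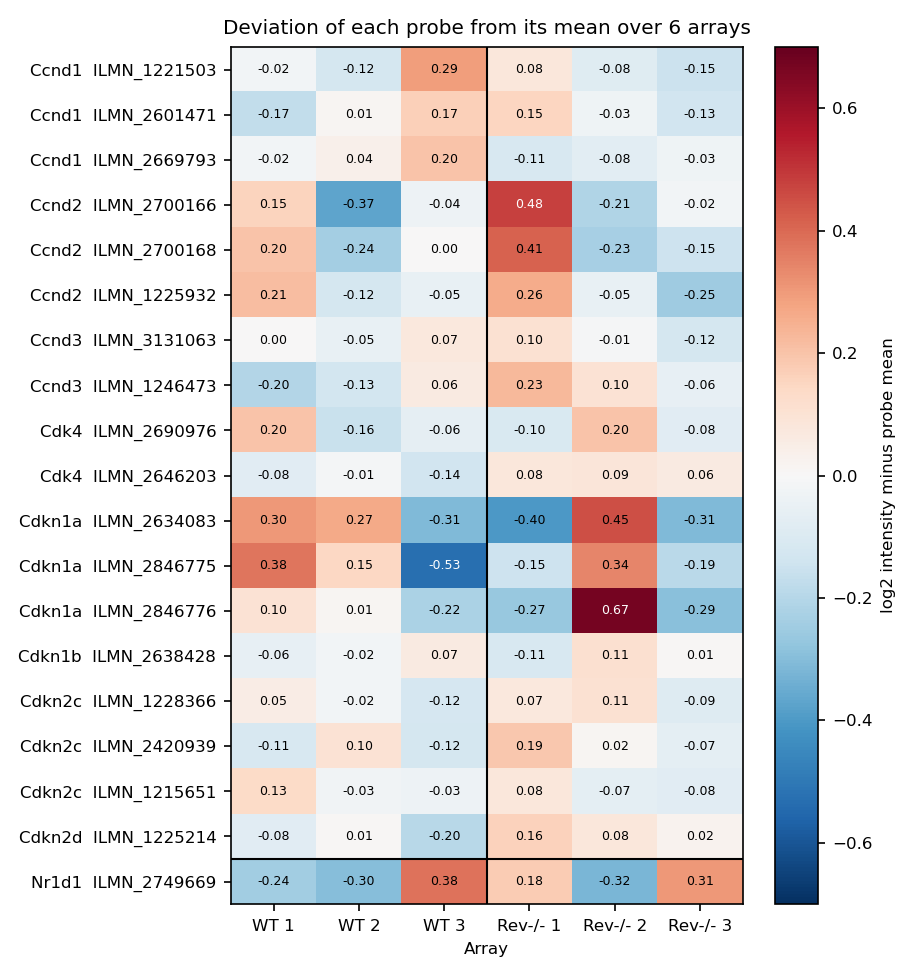
Deviation of each tested member probe from its own mean over the 6 arrays (log2, colour), with arrays in columns and probes in rows. The bottom row, below the line, is the Nr1d1 probe, which is not a member. The Cdkn1a rows are high on WT 1, WT 2 and Rev-/- 2. The Ccnd2 rows are highest on Rev-/- 1 and next on WT 1, so both patterns run across the labels.

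Of the remaining inhibitors none passed the test. For Cdkn1b, which encodes p27, ILMN_2638428 stayed close to background, at 6.76, 6.80 and 6.88 on WT and 6.71, 6.93 and 6.83 on Rev-/- arrays, above it on 5 (0.0073, SE 0.077), and the other Cdkn1b probes did not pass. Cdkn2c, which encodes the Ink4 inhibitor p18, had 3 tested probes: ILMN_1228366, at 8.14 to 8.30 on WT and 8.16 to 8.36 on Rev-/- arrays (0.057, SE 0.079), ILMN_2420939, at 7.38 to 7.60 and 7.43 to 7.69 (0.089, SE 0.095), and ILMN_1215651, at 6.85 to 7.02 and 6.81 to 6.97 (−0.048, SE 0.077). Ranges overlapped in each. Cdkn2d, the gene of the Ink4 inhibitor p19, read 7.58, 7.67 and 7.46 on WT and 7.82, 7.73 and 7.68 on Rev-/- arrays, with every Rev-/- array above every WT array. Its difference of 0.18 (SE 0.076; folds of 0.999 to 1.28) had an unadjusted limma p of 0.052, an adjusted p of 0.997 and an exact permutation p of 0.1. Cdkn2d and the dim Cdk4 probe were thus the members higher on all Rev-/- arrays, by 0.18 and 0.15, and their products have opposed roles, an inhibitor and its target kinase.

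Where a gene had several probes they often disagreed, since 4 of the 6 member genes with more than 1 tested probe had differences of both signs. Of the 18 tested probes, 7 were highest on Rev-/- 1 and 6 on Rev-/- 2, 3 on WT 3 and 2 on WT 1. Leaving out Rev-/- 1, the array that stood apart, gave 9 higher and 9 lower probes, a median of −0.0013 and 0 probes at an unadjusted p of at most 0.05. Then 4 probes did not overlap, those of Ccnd1, Cdk4 and Cdkn2d named above and ILMN_1215651 of Cdkn2c, against 19.1% of all tested probes.

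Other genes of the G1/S step were counted from a list of 52 by role, of which 51 had a probe, and 85 probes of 45 genes were tested. Of these 0 were called, 58 were higher and 27 lower (68.2% higher, against 47.7% of all tested probes), and the median was 0.035. The E2F targets, the replication genes downstream of the D-type cyclins, were higher in 20 of 25 probes, and the pocket proteins and E2F factors in 18 of 25. The CDK2 module (CDK2, its cyclins and Cdc25a), which acts next, was higher in 3 of 8 probes (median −0.041), the regulators of member turnover or transcription in 11 of 17, and the other CDK inhibitors and the CDK-activating kinase each in 3 of 5. The total turned without Rev-/- 1: 33 of the 85 probes were then higher and 52 lower with a median of −0.027, while all tested probes split 8986 to 9147. The E2F targets were then higher in 4 and lower in 21, the pocket proteins and E2F factors higher in 10 of 25, and the other CDK inhibitors in 1 of 5. The CDK2 module stayed at 3 of 8 and the regulators at 11 of 17, and the CDK-activating kinase was higher in 4 of 5. The summed level of the cycling cell markers was 11.07 on Rev-/- 1, against 10.62 to 10.69 on the other Rev-/- arrays and 10.51 to 10.63 on WT arrays, but 2 of the 4 with a probe were highest there: Birc5 read 10.003 on Rev-/- 1 and 9.07 to 9.23 elsewhere, while Cdk1 read 8.49 there and 8.61 on Rev-/- 2. What part the cells marked by neutrophil and bone transcripts have in this was not tested.

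Both list probes at an unadjusted p of at most 0.05 belonged to Gsk3b, a kinase that phosphorylates cyclin D1 for degradation (2.35% of the list, against 3.07% of all). ILMN_2593888 read 8.33, 8.31 and 8.38 on WT and 8.55, 8.57 and 8.53 on Rev-/- arrays (0.21, SE 0.056, unadjusted limma p = 0.0065, exact permutation p = 0.1), and ILMN_2551852 differed by 0.23 (SE 0.084, unadjusted limma p = 0.028, exact permutation p = 0.1). The ranges did not overlap in either, and both had an adjusted p of 0.997. The next smallest p values were those of single probes of Fbxo4, an F-box protein linked to cyclin D1 turnover (ILMN_2869312, −0.13, SE 0.063), Tyms, thymidylate synthase (ILMN_1247173, −0.13, SE 0.067), Rbl1, the pocket protein p107 (ILMN_2688306, 0.21, SE 0.11), and Ambra1, an adaptor in the degradation of D-type cyclins (ILMN_2760593, 0.24, SE 0.15). None of these passed the unadjusted threshold, and each gene had a tested probe of the opposite sign: 0.033 for Fbxo4, 0.040 and 0.030 for Tyms, −0.015 for Rbl1, and −0.10 and −0.031 for Ambra1. The opposing Rbl1 probe (6.69 to 6.79) was above background on 4 arrays, and the Tyms probe at 0.040 (6.67 to 6.87) on 3. Signs that close to background carry little weight. Of the upstream inducers, the receptor gene Met was above background on 1 array (6.58 to 6.77), and 1 of the 2 Myc probes was tested (0.021, SE 0.066). Arntl, also called Bmal1, a clock gene that Rev-erbα represses, differed by −0.16 (SE 0.097, folds of 0.762 to 1.05, exact permutation p = 0.3). It was lower on Rev-/- arrays in the mean, while the paper reports it higher in Rev-/- quadriceps by RT-qPCR. Like the Nr1d1 probe, the Arntl probe did not separate the labels. By RT-qPCR in primary myoblasts the paper reports Cyclin D1 and c-Met higher and p21 lower in Rev-/- cells. On these arrays no Ccnd1 or Cdkn1a probe was called, and the Met probe was too dim to test.

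**Figure D4:**
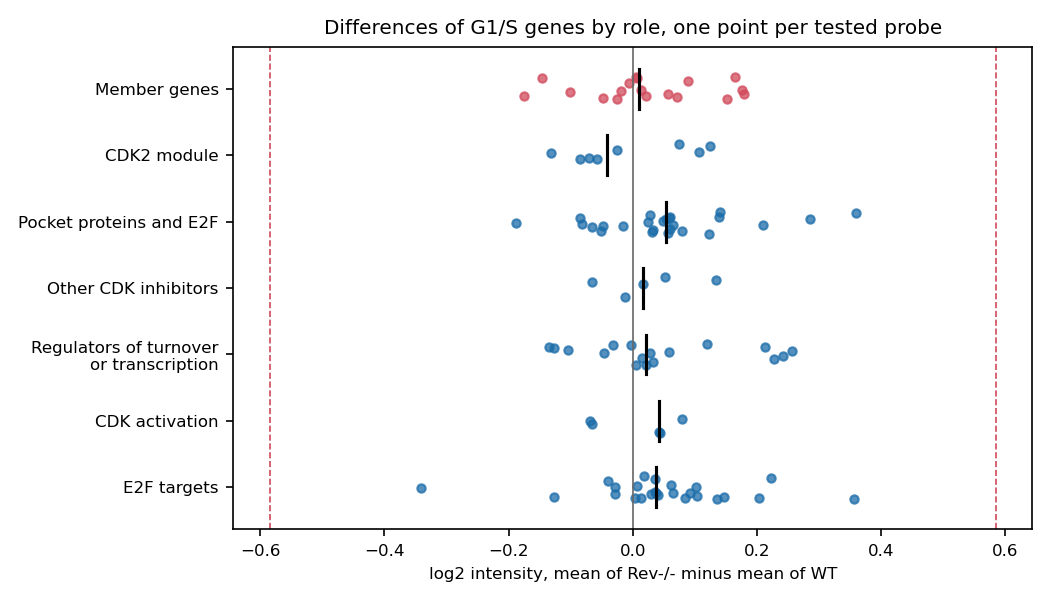
Difference between Rev-/- and WT arrays (log2, horizontal axis) of the tested probes of the wider G1/S list by role, beside the members. Points lie on both sides of 0 in each role, and no probe was called.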

How the data were processed

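RNA of 3 WT and 3 Rev-/- samples labelled as primary myoblasts was measured on Illumina mouse WG-6 V2.0 bead arrays. The deposited values are intensities on a linear scale, which the authors' methods describe as background-subtracted and quantile-normalized with lumi. Their columns did not share 1 distribution (medians 98.4 to 107), and the processing notes of the submitters list the tools GenomeStudio, lumi and limma, with no versions. A further table of signals and detection p-values, 12 columns (6 of signals) named by array position alone, was not used because nothing pairs positions with samples.

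The deposited intensities of 45281 probes were quantile-normalized and taken to log2 in limma 3.58.1 (R 4.3.3). In the platform annotation 34885 probes had 1 symbol, 18 several and 10378 none, and 34807 were matched by gene number. On each array, background was the density peak of the deposited log2 values with the dimmer side mirrored. Probes above its 95th percentile on at least 3 arrays were tested, 18133 of 11624 genes (20713 to 21900 probes were above it per array). The labels were compared per probe by lmFit and eBayes, unblocked, and p-values were adjusted over the 18133 probes (Benjamini-Hochberg). A call needed a fold of 1.5 or more with an adjusted p no higher than 0.05. Single probes also had an exact two-sided permutation test, whose smallest p is 0.1. Levels of different probes are not comparable, and the 3 arrays per label limit the precision. The fit was checked on simulated data. Named were all member probes, Nr1d1, Arntl, Met, Myc, the 6 listed probes of smallest p and the 3 genes most like Cdkn1a. The members, the lists and the rules were chosen with earlier results of these data known. Alternatives were other normalizations, normexp, other filters, array weights, a trend with a robust prior, a replicate block, a gene's mean over probes, other thresholds and each array left out.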

Additional observations from a re-analysis of the deposited data

How the results depend on the processing

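No member probe, listed G1/S probe or other tested probe was called under any normalization, filter, background correction, model or left-out array that was run. At an unadjusted p of at most 0.05 with no fold minimum the counts were 1 member probe, 2 of the wider list and 557 of all. Over the alternatives the member count at that threshold ran from 0 (normexp, array weights, trend with a robust prior, replicate block, all 6 arrays above background, and without WT 1, Rev-/- 1 or Rev-/- 2) to 4, and the count of all probes from 319 without WT 2 to 1073 without Rev-/- 2, 1287 with no filter, 2957 (4 members) with aligned medians and 3572 (4 members) on the deposited values. With aligned medians and on the deposited values, these 4 members were all tested Ccnd1 probes and ILMN_3131063 of Ccnd3, each lower on Rev-/- arrays. On the deposited values they differed by −0.41 (ILMN_1221503), −0.30 (ILMN_2601471), −0.38 (ILMN_2669793) and −0.35 (ILMN_3131063). With aligned medians they differed by −0.36, −0.25, −0.33 and −0.30. The smallest adjusted p was 0.0759 without Rev-/- 2 (0.815 among the members) and 0.162 on the deposited values without normalization. Signs were less stable: of 295 alternative values for the 18 member probes 44 turned, and 4 probes kept their sign in every alternative (ILMN_2669793 of Ccnd1, ILMN_1246473 of Ccnd3, ILMN_2634083 of Cdkn1a and Cdkn2d), though not their size: on the deposited values they were −0.38, 0.028, −0.46 and 0.020, and with 1 array left out they ranged from −0.19 to −0.081, 0.11 to 0.26, −0.44 to −0.019 and 0.12 to 0.22.

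The deposited values moved the median of all tested probes to −0.13 and that of the members to −0.16, and aligned array medians moved them to −0.088 and −0.11. Differences that turned on the deposited values were ILMN_2700166 (−0.11) and ILMN_2700168 (−0.22) of Ccnd2, ILMN_2690976 (−0.25) and ILMN_2646203 (−0.013) of Cdk4, ILMN_2846775 (−0.23) and ILMN_2846776 (−0.14) of Cdkn1a, Cdkn1b (−0.062), ILMN_1228366 (−0.16) and ILMN_2420939 (−0.052) of Cdkn2c, Myc (−0.031) and the Gsk3b probes (−0.013 and −0.032). With aligned medians they were, in the same order, −0.067 and −0.18 for Ccnd2, −0.21 for ILMN_2690976, −0.18 and −0.094 for Cdkn1a, −0.015 for Cdkn1b, and −0.11 and −0.0051 for Cdkn2c. Relative to the shifted median of all probes, ILMN_2646203 and both Gsk3b probes were still higher. Cyclic loess gave 0.0074 for ILMN_2601471 of Ccnd1, array weights −0.025 for ILMN_2700168 and −0.00042 for ILMN_2846775, and the mean over the tested probes of Ccnd3 was 0.081. The cause was not tested.

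With 1 array left out, the differences that turned ranged from −0.18 to 0.021 (ILMN_1221503) and −0.093 to 0.077 (ILMN_2601471) for Ccnd1, −0.034 to 0.31 (ILMN_2700166), −0.18 to 0.14 (ILMN_2700168) and −0.16 to 0.092 (ILMN_1225932) for Ccnd2, −0.076 to 0.038 for ILMN_3131063 of Ccnd3, −0.085 to 0.12 for ILMN_2690976 of Cdk4, −0.26 to 0.19 (ILMN_2846775) and −0.25 to 0.24 (ILMN_2846776) for Cdkn1a, −0.049 to 0.063 for Cdkn1b, −0.097 to 0.0059 for ILMN_1215651 of Cdkn2c, −0.017 to 0.052 for Myc and −0.019 to 0.32 for Nr1d1.

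Samples of equal number did not deviate together more than others did. Their correlations were −0.14, 0.14 and 0.036 for pairs 1 to 3, against −0.24 to 0.16 for samples of unequal number. Deviations centred within 3 arrays constrain each other, so these values cannot tell whether samples were prepared in pairs. A replicate block called 0 probes (smallest adjusted p 0.997, 592 probes passing 0.05 unadjusted). The Cdk6 and Met probes, above background on 1 array each, were too dim to test.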
